A study of Homo sapiens and Mus musculus with 7 samples.

Results

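HEL cells are a human erythroleukaemia line, and their unstimulated control culture is described here by the absolute levels of its transcripts. The library is the KAP1 WT culture labelled as not activated, which received no hemin; its column in the deposited table is headed Ctrl, and it was matched to the KAP1 WT label as the genotype left beside the knockdown. It is 1 of 7 samples in the series, 4 of which are RNA-seq libraries of HEL cells, and it was made from total RNA of 1 culture of a single cell line. The library has no replicate here, so no p-value is given, and every interval below is a 95% counting interval on reads that says nothing of the spread between cultures. All 14919 genes of the table entered the ranking, each represented by 1 RefSeq transcript, with 34222012 reads on the chosen transcripts. Levels are in TPM, that is reads per base of transcript scaled to a sum of 1000000 over these genes. Genes for which the table holds no row were not analysed here and are counted apart; why they have none is not known, so a missing row is not a measure of a low level.

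Red cells, platelets, mast cells, basophils and eosinophils descend from shared progenitors in the marrow. GATA1 and GATA2, transcription factors that bind the letters GATA, act in all of these branches, while KLF1 is known for the erythroid branch and FLI1 for the megakaryocytic branch. HEL cells have long been used as a model because they carry erythroid and megakaryocytic features side by side.

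The 4 genes given as markers of the culture were all ranked, at very different levels. HBG2 (NM_000184), a fetal gamma globin gene, stood at 6685 TPM (6634 to 6736) and was 8th of all genes. PRG2 (NM_002728), the major basic protein of eosinophil granules, stood at 1288 TPM (1269 to 1306) and was 108th. KIT (NM_001093772), the stem cell factor receptor, stood at 31.3 TPM (30.2 to 32.6) and was only 4982nd. TPSAB1 (NM_003294), a mast cell tryptase, stood at 13.2 TPM (11.6 to 14.9), under the median of all genes of 15.4 TPM. The globin and the granule protein were thus among the most abundant transcripts. KIT was above the middle of the distribution, at the 66.6th percentile, and TPSAB1 near the middle, at the 46.6th.

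**Figure D1:**
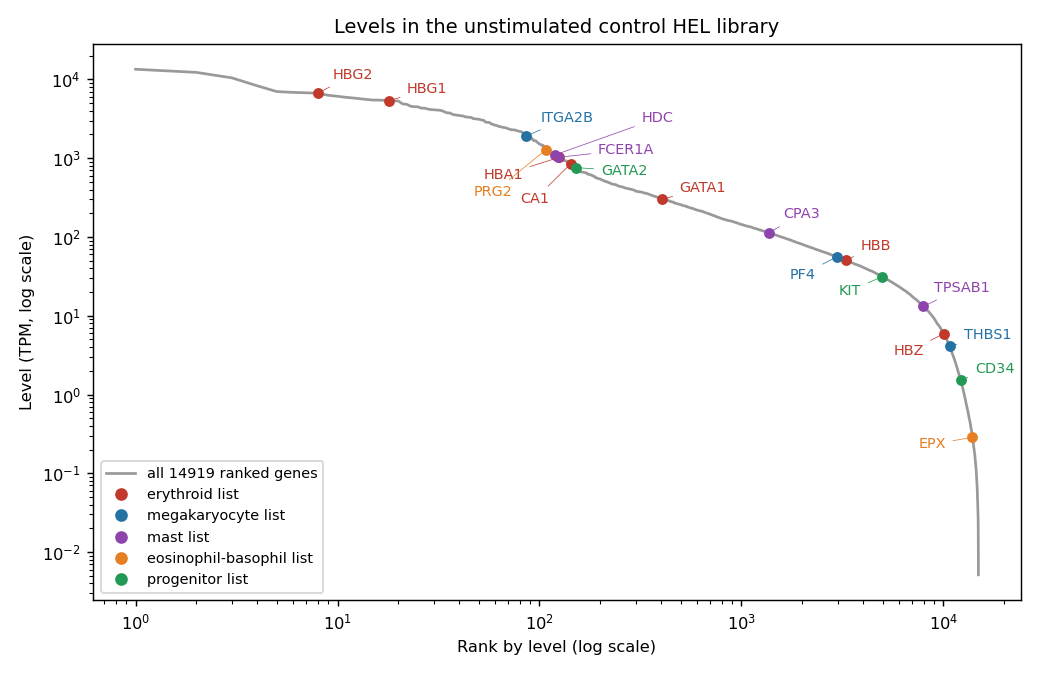
Level in TPM (log scale) against rank (log scale) for the 14919 genes of the unstimulated control library, drawn as a grey line, with 19 genes of the lineage lists as points coloured by list. HBG2 and HBG1 lie in the first 20 ranks, ITGA2B, PRG2, HDC and FCER1A between ranks 86 and 124, and CD34 and EPX among the low genes at the right.

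Levels ran from 0.00514 to 13455 TPM. The middle of the distribution lay between 3.09 TPM at the 25th and 44.4 TPM at the 75th percentile. At or above 10 TPM were 8793 genes (58.9%), at or above 100 TPM were 1577 (10.6%), and 2228 (14.9%) were under 1 TPM. The 10 highest genes held 8.42% of all TPM, the 100 highest 36.7% and the 1000 highest 65.2%, and 313 genes sufficed for 50% of the total. Counting precision was high: the interval had a median half-width of 2.00% of the level among the 1000 highest genes and of 15.2% between 1 and 10 TPM, and 3451 genes had under 100 reads.

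The most abundant transcripts were those of protein synthesis. Of the 30 highest genes 25 encode ribosomal proteins, and of the 100 highest 68 do. RPS6, a small subunit protein, led with 13455 TPM (13394 to 13517), followed by RPS18 with 12287 TPM and by EEF1A1, the elongation factor that delivers tRNA to the ribosome, with 10460 TPM. RPS25, RPL37A, RPL4 and the translationally controlled protein gene TPT1 came next, between 8304 and 6749 TPM. HBG2 followed directly on TPT1, and their counting intervals overlapped. Along the first 30 ranks, 13 of 30 genes could not be separated from the next gene by their intervals, so the exact order there is loose.

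All 81 ribosomal protein genes were at or above 10 TPM, from RPL17 with 164 TPM to RPS6, and they held 28.3% of TPM. Measured in reads the same genes held 10.3%, since their transcripts are short. The 100 highest genes had a median transcript length of 798 bases, against 2696 bases over all genes. Across all genes, which are not independent, level and length had a Spearman rho of -0.10. Translation factors held 4.27% of TPM, respiratory chain genes 1.76%, cytoskeleton genes 1.69%, globins 1.43%, glycolysis genes 1.24% and chaperones 1.21%. The glycolytic enzyme gene GAPDH stood at 4063 TPM, beta-2-microglobulin (B2M), the light chain of MHC class I, at 3494 TPM, ferritin light chain (FTL) at 2482 TPM and beta actin (ACTB) at 2289 TPM. The ribosomal RNAs RN28S1 (2853 TPM) and RN18S1 (2293 TPM) were also among the 100 highest, and the structural RNAs together held 0.560% of TPM. These are shares of the sequenced library and were not taken as the abundance of structural RNA in the cells.

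**Figure D2:**
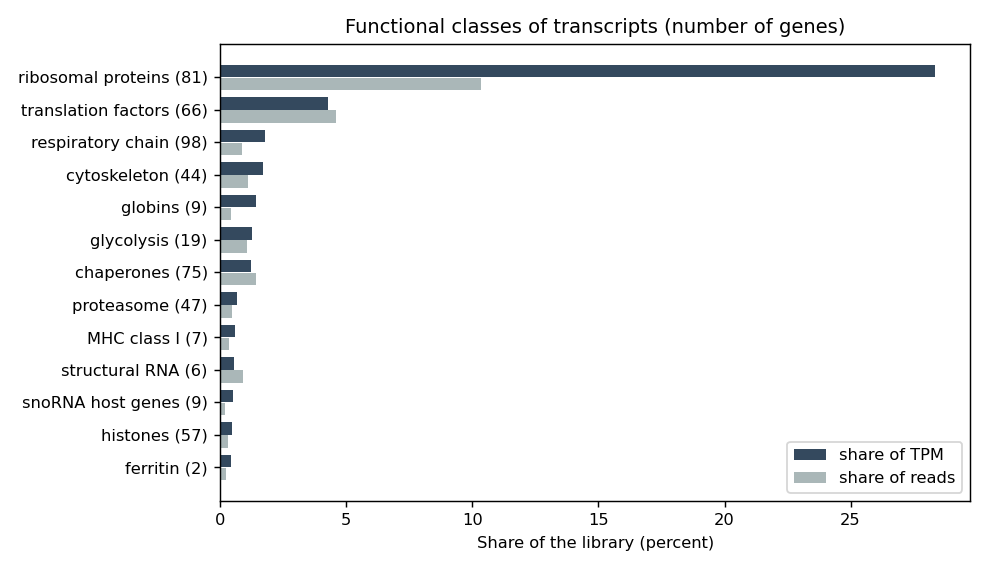
Share of the unstimulated control library, in percent, held by 13 functional classes of transcripts, as a share of TPM (dark bars) and of reads (light bars), with the number of ranked genes in brackets. Ribosomal protein genes held 28.3% of TPM but 10.3% of reads, and globins 1.43% of TPM and 0.410% of reads.

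Copies of near-identical sequence stood high and share reads in a way that these levels do not resolve. The transcribed pseudogene RPL13AP5, at 5425 TPM, was above its parent gene RPL13A, at 4492 TPM. Of the 160 highest entries, 7 are annotated as pseudogenes. No source used here says how the authors counted reads that fit several copies, so paired globin, tryptase and Rhesus genes below carry the same limit.

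Of the 40 highest protein-coding genes outside the functional classes, which were defined after levels were seen, 8 are on an erythroid, megakaryocyte, mast, eosinophil-basophil or progenitor list. Of all 14919 ranked genes these lists hold 62, 37, 19, 7 and 19 in that order, some of them on several lists. The lists were chosen with earlier results of these data known, so this count is no test. LAPTM5, a lysosomal membrane protein of blood cells, stood at 2274 TPM (rank 76) and ITGA2B, the alpha IIb chain of the platelet fibrinogen receptor, at 1905 TPM (rank 86). PRG2 was at rank 108. HDC, the enzyme that makes histamine, stood at 1099 TPM (rank 119), and FCER1A, the IgE-binding chain of the high-affinity IgE receptor, at 1024 TPM (rank 124). MYL4, an embryonic and atrial myosin light chain, was at 918 TPM, carbonic anhydrase CA1 at 853 TPM, and the kinase gene PIM1, a known target of STAT5, at 828 TPM. GATA2 stood at 760 TPM and the platelet protein gene PLEK at 688 TPM. The transferrin receptor TFRC, at 658 TPM, was the lowest of the 8. The 40 also held YBX1 (1923 TPM), an RNA-binding protein, NPM1 (1093 TPM) and NCL (1059 TPM), both nucleolar.

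Lineage lists, chosen with earlier results of these data known, were set against all genes by their counts. At or above 10 TPM were 53 of 62 ranked erythroid genes, 30 of 37 megakaryocyte genes and 16 of 19 mast cell genes, that is 85.5%, 81.1% and 84.2%, beside 58.9% of all genes. The progenitor list had 12 of 19 and the eosinophil-basophil list 3 of 7. Median levels were 59.8 TPM for megakaryocyte genes, 51.5 TPM for erythroid genes, 31.3 TPM for mast cell genes, 22.4 TPM for progenitor genes and 2.57 TPM for eosinophil-basophil genes, beside 15.4 TPM over all genes. Members without a row numbered 4 of 66, 2 of 39, 3 of 22, 5 of 24 and 7 of 14 for the erythroid, megakaryocyte, mast, progenitor and eosinophil-basophil lists. KIT and GATA2 are on the mast and progenitor lists, LMO2 on the erythroid and progenitor lists, and MEIS1 and ANGPT1 on the megakaryocyte and progenitor lists. In a bulk library, fewer cells of a type and less RNA per cell cannot be told apart, and whether the programmes were present in the same cells was not tested.

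**Figure D3:**
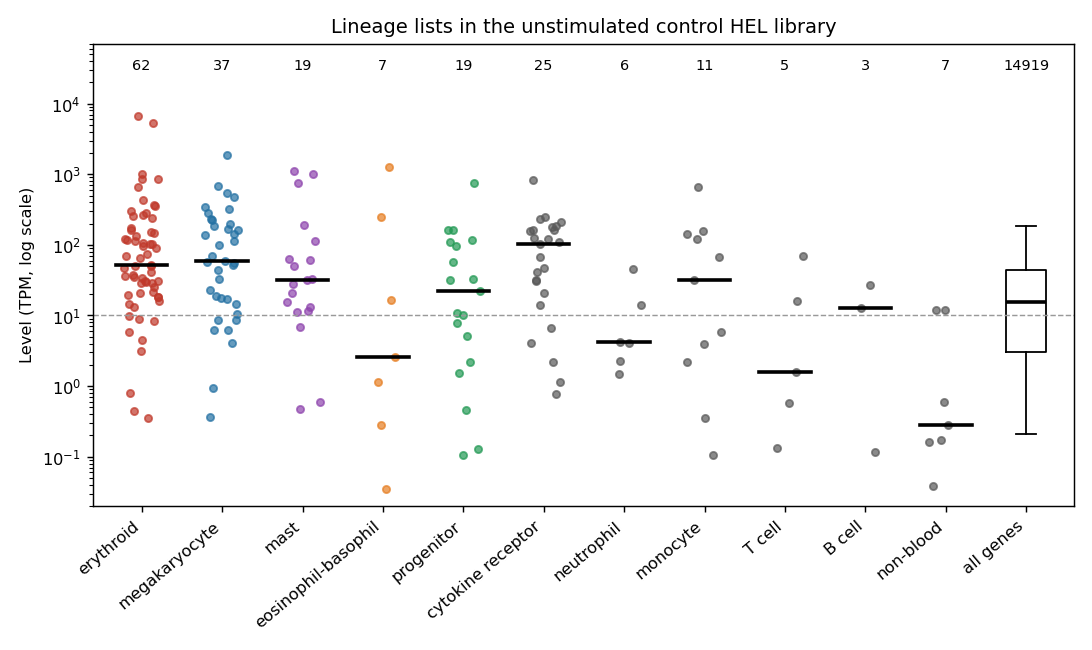
Level in TPM (log scale) of each ranked member of 11 gene lists in the unstimulated control library, with a black line at the median, the number of ranked members above each list, and a box for all 14919 genes (quartiles, whiskers at the 5th and 95th percentiles). The dashed line marks 10 TPM; the erythroid and megakaryocyte medians lie at 51.5 and 59.8 TPM, and the eosinophil-basophil list has PRG2 far above its median of 2.57 TPM.

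The start regions of these genes were searched for GATA letters, since GATA1 and GATA2 were both abundant. The sequences are RefSeq promoters on GRCh38.p14, the 250 bases before the gene start, and 10276 ranked genes had an entry. AGATAA or TGATAA, on either strand, was present in 14 of 40 erythroid promoters (35%), 5 of 15 mast (33.3%), 6 of 25 megakaryocyte (24.0%) and 1 of 15 progenitor promoters (6.67%). Over all ranked genes it was present in 864 promoters (8.41%), and among the 100 highest genes in 6 of 73 (8.22%). The letters GGAAGT, which ETS factors such as FLI1 bind, were present in 9 of 25 megakaryocyte promoters (36.0%), beside 23.4% of all. The share was similar in the 100 highest genes, 25 of 73 (34.2%), and in progenitor promoters, 5 of 15 (33.3%). Mast promoters had them in 3 of 15 (20.0%) and erythroid promoters in 2 of 40 (5.0%). The KLF letters CCACACCC and the TATA letters TATAAA were also searched. CCACACCC was present in 1 of 40 erythroid promoters (2.5%), beside 2.84% of all, and in 1 of 15 progenitor promoters (6.67%). No megakaryocyte or mast promoter held it. TATAAA was in 6 of 40 erythroid (15.0%), 5 of 25 megakaryocyte (20.0%), 2 of 15 mast (13.3%) and 3 of 15 progenitor promoters (20.0%). Over all genes its share was 5.98%. No count here shows that a factor binds. The promoters below are those of 2 genes with GATA letters from each of the mast, erythroid and megakaryocyte lists, taken by level, except that RAB27B, a megakaryocyte gene at 230 TPM, is not shown. They are given 5′ to 3′ with the GATA letters, or their reverse complement TTATCT or TTATCA, in capitals.
FCER1A (chr1:159302086-159302335, plus strand): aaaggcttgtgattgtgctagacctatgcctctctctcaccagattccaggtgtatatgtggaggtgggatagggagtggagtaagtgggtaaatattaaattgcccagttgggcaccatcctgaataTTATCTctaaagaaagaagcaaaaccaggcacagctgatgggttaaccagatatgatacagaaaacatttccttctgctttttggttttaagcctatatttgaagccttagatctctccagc
CPA3 (chr3:148865046-148865295, plus strand): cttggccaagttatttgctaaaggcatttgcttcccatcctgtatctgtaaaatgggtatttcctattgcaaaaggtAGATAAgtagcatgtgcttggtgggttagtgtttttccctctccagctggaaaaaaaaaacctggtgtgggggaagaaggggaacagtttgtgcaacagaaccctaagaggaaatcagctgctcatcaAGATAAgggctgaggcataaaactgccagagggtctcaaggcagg
RHAG (chr6:49636840-49637089, minus strand): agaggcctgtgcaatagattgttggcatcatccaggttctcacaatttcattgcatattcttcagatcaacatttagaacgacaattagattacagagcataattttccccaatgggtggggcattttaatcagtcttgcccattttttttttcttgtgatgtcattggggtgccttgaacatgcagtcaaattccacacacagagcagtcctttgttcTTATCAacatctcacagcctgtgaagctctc
TAL1 (chr1:47232336-47232585, minus strand): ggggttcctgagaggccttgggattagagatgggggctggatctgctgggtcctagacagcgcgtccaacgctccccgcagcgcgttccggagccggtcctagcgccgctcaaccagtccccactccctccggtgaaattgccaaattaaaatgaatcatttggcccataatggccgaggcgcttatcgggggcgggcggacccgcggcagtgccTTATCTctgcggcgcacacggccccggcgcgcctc
PTGS1 (chr9:122370283-122370532, plus strand): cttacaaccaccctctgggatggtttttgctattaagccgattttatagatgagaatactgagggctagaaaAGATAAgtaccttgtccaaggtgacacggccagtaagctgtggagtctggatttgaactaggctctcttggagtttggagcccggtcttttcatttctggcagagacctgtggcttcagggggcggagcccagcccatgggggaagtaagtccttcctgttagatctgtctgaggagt
SELP (chr1:169630125-169630374, minus strand): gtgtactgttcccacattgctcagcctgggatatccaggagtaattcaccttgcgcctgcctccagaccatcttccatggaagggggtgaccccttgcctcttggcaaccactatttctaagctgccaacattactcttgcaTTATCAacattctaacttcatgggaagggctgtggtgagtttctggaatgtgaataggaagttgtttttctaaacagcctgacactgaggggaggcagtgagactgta
In RHAG and TAL1 the letters begin 31 and 35 bases before the start. CPA3 holds AGATAA at 173 and again at 45 bases before the start, FCER1A holds it at 122 bases on the other strand, and PTGS1 and SELP hold their letters at 178 and 108 bases. These genes stood at 1024 TPM (FCER1A), 319 TPM (PTGS1), 284 TPM (RHAG), 174 TPM (TAL1), 166 TPM (SELP) and 113 TPM (CPA3).

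Among globins, which carry oxygen in red cells, the fetal gamma genes dominated. HBG2 at 6685 TPM and HBG1 at 5372 TPM (5326 to 5418) are near-identical, and together they reached 12056.5 TPM, which would be rank 3. They made up 97.4% of beta-like globin TPM. The embryonic gene HBE1 stood at 261 TPM (253 to 270), or 2.11%. Adult HBB was at 50.4 TPM (46.2 to 54.9), or 0.407%, and the minor adult gene HBD at 8.92 TPM (7.36 to 10.7), or 0.0720%. No interval of these 5 genes overlapped another.

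Alpha-like globin genes stood lower than the gamma genes. HBA1 was at 1023 TPM (1003 to 1044) and HBA2, which encodes the same protein, at 864 TPM (846 to 882). The embryonic zeta gene HBZ was at 5.91 TPM (4.49 to 7.64) on 58 reads, or 0.309% of alpha-like TPM, and the theta gene HBQ1 at 18.6 TPM (16.1 to 21.3). HBM and the alpha globin chaperone gene AHSP had no row. The sum of beta-like levels was 12377 TPM and that of alpha-like levels 1912 TPM, so beta-like messages were 6.47 times as abundant per length, as far as the paired copies were counted alike. Globins as a whole took 1.43% of TPM.

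**Figure D4:**
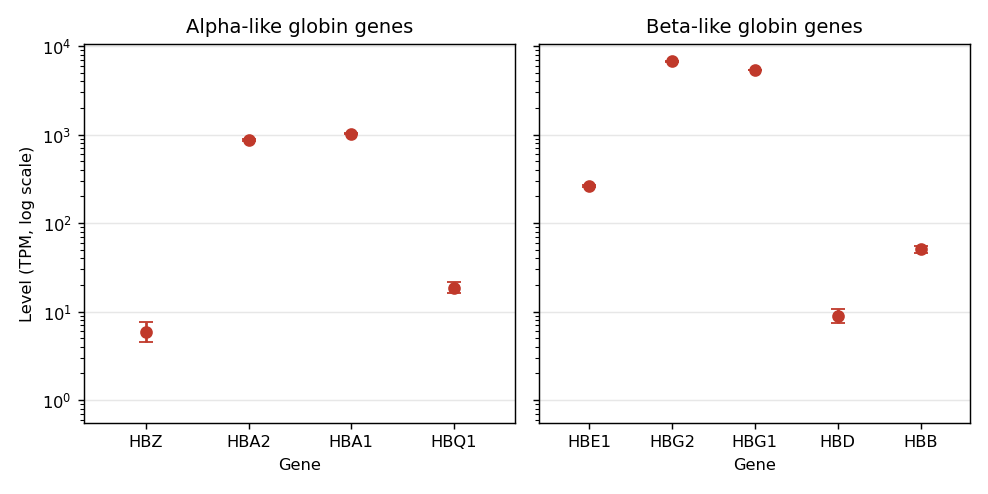
Level in TPM (log scale) of 4 alpha-like and 5 beta-like globin genes in the unstimulated control library, in their usual order of expression from embryonic to adult except for HBQ1, with bars for the 95% counting interval on reads. HBG2 and HBG1 stand above 5000 TPM, HBA1 and HBA2 near 1000 TPM, and HBZ and HBD under 10 TPM.

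Genes that regulate the change from fetal to adult globin were at mixed levels. The gamma globin repressor gene BCL11A stood at 3.15 TPM (2.81 to 3.52) and its partner SOX6 at 0.444 TPM (0.343 to 0.565). The repressor gene ZBTB7A was at 9.98 TPM, MYB at 11 TPM and KLF1 at 103 TPM. Among factors known from fetal cells, IGF2BP1 stood at 83.2 TPM, IGF2BP2 at 43.8 TPM, LIN28B at 31.4 TPM and IGF2BP3 at 29.4 TPM, with HMGA2 at 1.79 TPM. The chromatin remodeller CHD4 was the highest of this list with 292 TPM.

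Haem synthesis genes, which build the iron-containing group of haemoglobin, were all between 14.6 and 244 TPM. UROD led with 244 TPM, followed by UROS with 135 TPM and CPOX with 114 TPM. The erythroid form of the first enzyme, ALAS2, stood at 36.7 TPM (34.6 to 38.8), and FECH, the enzyme that inserts iron, was lowest with 14.6 TPM. Iron uptake genes were higher: the transferrin receptor gene TFRC stood at 658 TPM, the mitochondrial iron importer SLC25A37 at 261 TPM and the second transferrin receptor TFR2 at 164 TPM.

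The red cell membrane genes differed widely among themselves. The highest were GYPC, glycophorin C, with 439 TPM, RHAG, the Rhesus-associated glycoprotein, with 284 TPM, and ICAM4, the Landsteiner-Wiener blood group gene, with 147 TPM. GYPB, a further glycophorin, was at 123 TPM. RHCE and RHD, which share sequence, were at 49.9 and 29.8 TPM. Among skeleton genes EPB41, protein 4.1, was at 107 TPM and ANK1, ankyrin, at 104 TPM, whereas the spectrin gene SPTB was at 30.8 TPM and EPB42 at 13.2 TPM. SLC4A1, the band 3 anion exchanger abundant in mature red cells, was at 0.800 TPM (0.618 to 1.02) on 66 reads. In the cytosol, CA1 stood at 853 TPM and the other isoform CA2 at 34.5 TPM, and BLVRB, biliverdin reductase B, at 153 TPM. Slightly under 10 TPM were HEMGN, with 9.89 TPM, and the water channel gene AQP1, with 8.46 TPM.

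Megakaryocyte surface genes were led by ITGA2B at 1905 TPM (1893 to 1916), with 105818 reads the 9th of all genes by reads. Its partner chain ITGB3 stood at 196 TPM (193 to 199), and ITGA2B was 9.73 times as high (95% interval 9.57 to 9.89, exact conditional binomial). Of the von Willebrand factor receptor, GP9 was at 222 TPM, GP1BA at 115 TPM, GP5 at 17.0 TPM and GP1BB at 6.20 TPM. P-selectin (SELP) stood at 166 TPM, the thrombin receptor F2R at 139 TPM and CD226 at 99.4 TPM. P2RX1 was at 59.8 TPM, the collagen receptor gene GP6 at 51.9 TPM and TREML1 at 17.8 TPM. Lower still were CD9 at 14.4 TPM, ITGA2 at 10.3 TPM and CLEC1B at 0.367 TPM on 3 reads.

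Platelet granule genes ran from 474 to 0.951 TPM and overlapped the surface genes in level. TGFB1 had 474 TPM and the granule proteoglycan gene SRGN 144 TPM. Multimerin (MMRN1) stood at 68.8 TPM, angiopoietin 1 (ANGPT1) at 57.3 TPM and platelet factor 4 (PF4) at 55.8 TPM (50.8 to 61.3). Its relative PF4V1 was at 8.50 TPM, PPBP at 6.24 TPM, thrombospondin (THBS1) at 4.09 TPM and VWF at 0.951 TPM (0.800 to 1.12). In the cytoplasm PLEK stood at 688 TPM, LAT, a signalling adaptor, at 344 TPM, PTGS1, the platelet cyclo-oxygenase, at 319 TPM and RAB27B, a granule GTPase, at 230 TPM. The platelet tubulin gene TUBB1 was at 22.8 TPM and thromboxane synthase (TBXAS1) at 19.1 TPM. P2RY12 and F13A1 had no row.

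Genes shared by mast cells and basophils included some of the highest of all lineage genes. HDC stood at 1099 TPM (1085 to 1113) and FCER1A at 1024 TPM (1010 to 1039). The other chains of the IgE receptor were lower: FCER1G, the signalling chain it shares with other receptors, had 188 TPM (180 to 197) and MS4A2, the beta chain, 11.2 TPM (10.3 to 12.0). FCER1A was thus 5.44 times as high as FCER1G (5.19 to 5.71) and 91.8 times as high as MS4A2 (85.1 to 99.3). The mast cell carboxypeptidase gene CPA3 stood at 113 TPM (109 to 117). The monoamine transporter SLC18A2, which loads histamine into granules, was at 61.2 TPM, the leukotriene genes ALOX5AP, LTC4S and ALOX5 at 62.7, 49.4 and 32.7 TPM, and HPGDS, prostaglandin D synthase, at 15.7 TPM.

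The tryptase genes stood below CPA3, the other protease gene ranked in this list. TPSAB1 at 13.2 TPM and TPSB2 at 11.6 TPM (10.2 to 13.3) are near-identical, and their sum of 24.8 TPM would be rank 5819. TPSD1 was at 6.95 TPM. MITF, a transcription factor of mast cells, stood at 0.474 TPM and ENPP3 at 0.604 TPM, while TPSG1, CMA1, the chymase gene, and MRGPRX2 had no row.

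PRG2 stood apart from the other eosinophil genes. It had 18753 reads, whereas eosinophil peroxidase (EPX) was at 0.286 TPM (0.152 to 0.488) on 13 reads and CCR3, the eotaxin receptor, at 0.0349 TPM on 1 read. PRG2 was 4508 times as high as EPX per length, with an interval of 2635 to 8467. The Charcot-Leyden crystal gene CLC, the granule ribonucleases RNASE2 and RNASE3, PRG3, IL5RA, ALOX15 and CEBPE had no row. The receptor genes PTGDR2 and SIGLEC8 were at 16.7 and 2.57 TPM. CSF2RB, the signalling chain common to receptors for GM-CSF, interleukin 3 and interleukin 5, stood at 252 TPM (248 to 255), while IL3RA, which pairs with it, was at 1.15 TPM.

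Progenitor genes were uneven. CD34, the classical marker, was at 1.53 TPM (1.19 to 1.95) on 67 reads, and PROM1, FLT3, CD38, SPINK2 and CRHBP had no row. THY1, a surface marker of stem cells among other cells, stood at 160 TPM, the leukocyte phosphatase PTPRC at 95.6 TPM and KIT at 31.3 TPM. Of the progenitor transcription factors GATA2 was at 760 TPM, HHEX at 161 TPM and LMO2 at 118 TPM, but MEIS1 at 33.3 TPM, HOXA10 at 22.4 TPM, MYB at 11 TPM and MYCN at 10.2 TPM. ERG was at 5.11 TPM and MECOM at 2.17 TPM. HOXA9, HLF and BAALC were all under 1 TPM, as were 14.9% of all genes.

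At or above 100 TPM were 6 of 9 erythroid and 3 of 5 megakaryocyte transcription factors, beside 10.6% of all genes, with 1 of 2 mast and 3 of 11 progenitor factors. After GATA2 came NFE2, a factor of globin and platelet genes, with 548 TPM, the erythroid complex member LDB1 with 362 TPM, the repressor GFI1B with 360 TPM, GATA1 with 300 TPM (294 to 307) and RUNX1 with 279 TPM. LDB1 and GFI1B did not differ beyond their intervals. FLI1 was at 185 TPM, TAL1 at 174 TPM and KLF1 at 103 TPM, the last 2 being partners of GATA1 in red cell genes. LMO2, which bridges TAL1 and GATA1, was at 118 TPM. Under 100 TPM were ETV6, an ETS family repressor, with 44.8 TPM, MEIS1 with 33.3 TPM, the GATA1 cofactor ZFPM1 with 25.6 TPM, BCL11A with 3.15 TPM and SOX6 with 0.444 TPM. GATA2 was 2.53 times as high as GATA1 per length (2.47 to 2.59).

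Cytokine receptor levels gave a further view of the lineages. CSF2RB was the highest receptor with 252 TPM. The gamma chain gene IL2RG stood at 158 TPM (154 to 163) and the erythropoietin receptor EPOR at 47.0 TPM (44.9 to 49.1). KIT, at 31.3 TPM, and the interleukin 6 signal chain IL6ST, at 31.2 TPM, could not be separated by their intervals. IL9R was at 14 TPM, CSF3R at 4.12 TPM, CSF1R at 2.19 TPM and IL6R at 0.762 TPM. FLT3 and CSF2RA had no row.

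Downstream, STAT3 stood at 236 TPM, STAT5A at 212 TPM and STAT5B at 122 TPM, with STAT6 at 6.68 TPM. JAK1 and JAK2 were at 177 and 162 TPM, TYK2 at 123 TPM and JAK3 at 103 TPM. Of the feedback inhibitors of this pathway, CISH was at 111 TPM, SOCS3 at 66.4 TPM, SOCS2 at 41.4 TPM and SOCS1 at 20.8 TPM. In all, 20 of 25 ranked members of this list were at or above 10 TPM and 13 at or above 100 TPM, beside 58.9% and 10.6% of all genes. These counts pool receptors with signalling genes. Apart from STAT6, every ranked member under 10 TPM was a receptor gene, namely CSF3R, CSF1R, IL3RA and IL6R.

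**Figure D5:**
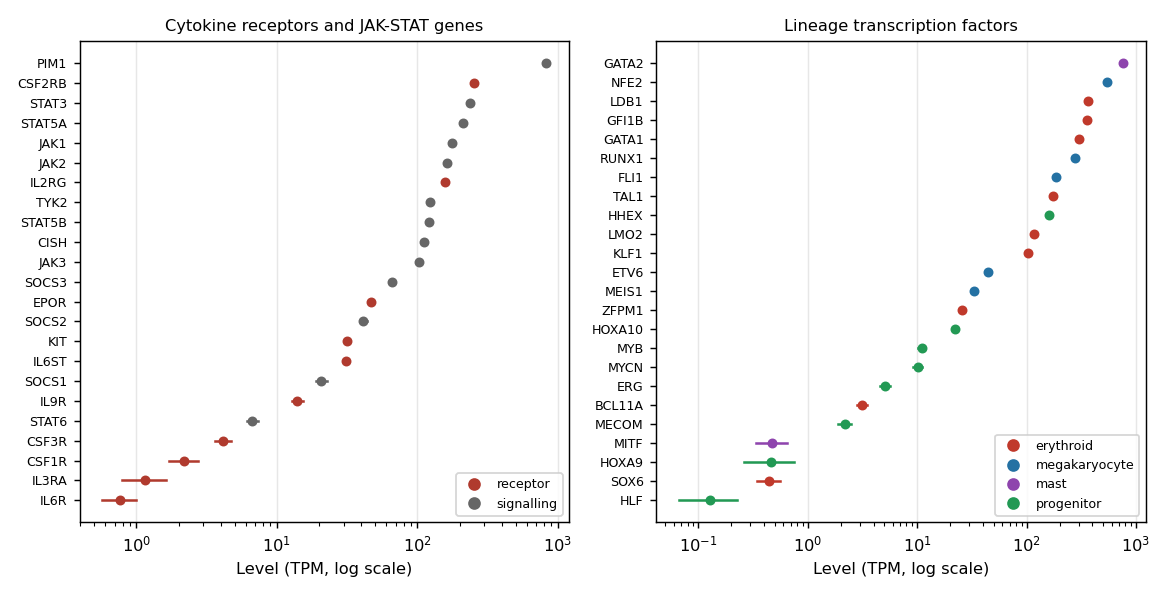
Level in TPM (log scale) of 23 cytokine receptor and signalling genes (left) and of lineage transcription factors (right) in the unstimulated control library, with lines for the 95% counting interval; a factor on several lists takes the colour of the first of them. CSF2RB leads the receptors with 252 TPM and GATA2 the factors with 760 TPM, while IL3RA and IL6R lie near 1 TPM.

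Marker lists of other blood cells differed in level. Medians were 32.2 TPM for monocyte genes, close to the mast list, 12.6 TPM for B cell genes, 4.17 TPM for neutrophil genes and 1.57 TPM for T cell genes, beside 15.4 TPM over all genes. Of the neutrophil list 6 of 15 members were ranked, 2 of them (33.3%) at or above 10 TPM, beside 58.9% of all genes, lysozyme (LYZ) at 45.0 TPM and cathepsin G (CTSG) at 14 TPM, and the granule genes MPO, ELANE, PRTN3 and AZU1 had no row. The monocyte list had 11 of 14 ranked, 6 of them (54.5%) at or above 10 TPM and 4 at or above 100 TPM, led by AIF1 with 662 TPM, CD33 with 159 TPM, the transcription factor SPI1 with 143 TPM and the integrin ITGB2 with 121 TPM. Its members CD14, a receptor for bacterial lipopolysaccharide, and CSF1R, the M-CSF receptor, were at 0.351 and 2.19 TPM, and CD163 had no row. T cell genes were led by CD2, an adhesion receptor, with 70.4 TPM, while CD3D, CD3E, CD3G and LCK had no row. Of B cell genes CD79A stood at 26.8 TPM, but MS4A1 had no row. Of the non-blood list 7 of 16 members were ranked, and 5 of these 7 were under 1 TPM, beside 14.9% of all genes. The other members were SYP, a synaptic vesicle gene, at 12.1 TPM and CDH5, an endothelial cadherin gene, at 11.9 TPM.

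Genes of growth and survival, a list made after levels were seen, had a median of 105 TPM. CCND3, a G1 cyclin, was at 482 TPM, MYC at 437 TPM, the survival gene BCL2L1 at 404 TPM and CDK4 at 297 TPM. The cyclin genes CCND2 and CCND1 were at 114 and 30.4 TPM. BCL2 was at 9.05 TPM and MCL1 at 108 TPM. The cell cycle inhibitor gene CDKN1A was lowest with 3.03 TPM. Among the other cycle genes CDK1 stood at 55.2 TPM, CDKN1B at 36.1 TPM, MKI67 at 32.2 TPM and CCNB1 at 25.5 TPM. In this list 15 of 17 members were at or above 10 TPM, beside 58.9% of all genes. As its members were picked with levels known, this count is no test.

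TRIM28, which encodes KAP1 and is the target of the knockdown in other cultures of the series, was at 403 TPM here. It is 1 of 5 transcripts deposited as whole numbers, unlike all other rows, so its reads are not known and it has no interval; the scale of its value is uncertain.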

How the data were processed

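Expression was measured by RNA-seq of HEL cells, and the column of the unstimulated control culture was analysed. Per the labels, libraries were made from total RNA with the TruSeq RNA kit. The submitters' processing notes list Bowtie and hg19 with no role; further steps were not given in the sources used here. Per the file headers, the authors deposited an RPKM for each RefSeq transcript, in 24538 rows for 14946 gene symbols, with no value of 0. In all 24533 rows that are not whole numbers the deposited values equalled whole reads divided by transcript length, times a factor for each library (read tolerance 0.0002, plus 4e-09 of the reads). Reads and lengths were recovered from this relation. How the library factor relates to depth was not tested. A row whose reads in the 4 libraries share a factor can be recovered too low, which widens its interval. Recovery was tested on simulated data.

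Each gene took its transcript with the highest mean over the 4 libraries, and symbols that share this transcript were 1 entry, which gave 14919 genes. TPM is the deposited value over its sum, times 1000000. Intervals are exact Poisson intervals at 95%, or exact conditional binomial for ratios, and reflect counting error alone, as PCR copies are not separate molecules. With 1 library no test between samples was made. Named genes are the highest genes, the 4 markers and members of the lists. The lists were chosen with earlier results of these data known, and the functional classes and 3 lists, on globin switching, growth and MHC class II, after levels were seen. Promoters are from RefSeq (GRCh38.p14). Python 3.11.15 and scipy 1.17.1 were used. The ChIP-seq peaks were not used here, and some genes are not reported here.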

Additional observations from a re-analysis of the deposited data

How the results depend on the processing

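Other choices of transcript or floor left the counts at or above 10 TPM within 1.5 times of those reported. This held for all genes and for the erythroid, megakaryocyte, mast, eosinophil-basophil and progenitor lists. That band is wider than the gap between the list shares and the share of all genes, so it cannot show whether the gap holds. With all transcripts summed, 56 erythroid, 29 megakaryocyte and 13 mast genes were counted, beside 8456 of all genes. The reported counts were 53, 30, 16 and 8793. The denominator was changed for all genes only, with 8837 genes without globins and 9618 without ribosomal proteins. Genes counted were between 6600 (floor of 20 TPM) and 10403 (floor of 5 TPM). The globin share of 1.43% became 1.44% with the transcript with the most reads, 0.988% with all transcripts of a gene summed and 0.410% as a share of reads. The share of the 100 highest genes, 36.7%, became 36.9%, 31.95% and 18.9% under the same settings. Summing transcripts counts reads on shared exons repeatedly and so favours genes with many transcripts; it put HBG2 at 4623 TPM and rank 17, PRG2 at 890 TPM and rank 148, KIT at 42.9 TPM and TPSAB1 at 9.11 TPM. With near-identical partners summed, HBG2 would be rank 3 and HBA1 rank 87. Ranked by reads, the mast list's median percentile was 57.2 in place of 66.6. Depth limits the low genes: CCR3 rests on 1 read and CLEC1B on 3. No paired analysis was possible because the group is 1 library and no comparison between groups was made.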

Other observations

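The gene ZNF10, which encodes a KRAB zinc finger protein, stood at 1116 TPM (1109 to 1124) with 82176 reads, at rank 118. The other 467 genes named ZNF and a number were lower, with ZNF207 next at 310 TPM and a median over all 468 of 7.58 TPM. By reads ZNF10 was the 17th of all genes. It was chosen after its value was seen, and no cause was tested.

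MHC class II genes, a list made after levels were seen, were at mixed levels. At or above 10 TPM were 4 of 6 ranked members (66.7%), beside 58.9% of all genes. CIITA, a master regulator of the class, was at 6.23 TPM. CD74, the invariant chain, stood at 245 TPM, HLA-DPA1 at 120 TPM, HLA-DRA at 25.8 TPM and HLA-DPB1 at 22.3 TPM, while HLA-DRB1 was at 1.22 TPM and HLA-DQA1 and HLA-DQB1 had no row. The protease gene CTSW, known from T and natural killer cells, stood at 629 TPM, at rank 173.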
